A study of Homo sapiens with 6 samples.

Results

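MYC and 35 genes of nucleolar ribosome biogenesis were followed in RNA-seq of C4-2B-ENZR cells. This human prostate cancer cell line grows in the presence of enzalutamide, a drug that blocks the androgen receptor. The 36 genes were named by symbol, and a gene was kept when its mean signal reached 1 in at least 1 group. All 36 symbols were listed among the 17356 in each library. Of these, 35 were tested among 16548 genes of the whole series, and NOP56 fell short of that minimum. In 3 libraries, labelled siKIF15, the RNA came from cells that received an siRNA against KIF15, which encodes a spindle kinesin. They were compared with 3 NC libraries, from cells that received a negative control siRNA, so transfection was shared by both groups. The cells of both groups grew in the same medium with serum. Whether replicate libraries are separate cultures is not said in the labels, so a p-value reflects the spread among these 6 libraries, which may be technical.

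Ribosomes are made mainly in the nucleolus, where RNA polymerase I copies the ribosomal DNA into a long precursor RNA. Small nucleolar ribonucleoproteins (snoRNPs) modify that RNA, and a succession of assembly factors cut, fold and join it with ribosomal proteins into the small and the large subunit. MYC is a transcription factor that pairs with MAX, binds the E-box CACGTG and is known for driving many genes of this pathway. Prostate cancers often carry extra copies of MYC, and large nucleoli are a feature that pathologists use to recognise the disease.

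KIF15 transcripts did not bear out the label. The KIF15 signal was 294.8, 333.1 and 363.0 in the libraries labelled siKIF15, against 366.4, 403.6 and 319.0 in the NC libraries. The log2 change was -0.13 (limma adjusted p = 0.57), so changes are given for the libraries labelled siKIF15 relative to NC, by label alone. The deposited signal has an unknown sequencing depth, and its sums ranged from 50360191 to 53157388 in the libraries labelled siKIF15 and from 49460840 to 50063012 in NC. Luminal prostate markers summed to between 375188 and 389811 in the libraries labelled siKIF15 and to between 342570 and 350454 in NC, with all 11 above a mean of 1, 5 of them higher and 1 lower by the same test. Leukocyte markers summed to at most 79.2 in the libraries labelled siKIF15 and 85.1 in NC, with PTPRC, the general leukocyte marker, below a mean of 1. Fibroblast markers summed to at most 507.4 in the libraries labelled siKIF15 and 529.8 in NC, with 1 of 8 called higher, and endothelial markers to at most 429.3 in the libraries labelled siKIF15 and 351.7 in NC. The part of these markers in the results was not tested. In bulk RNA, fewer cells that carry a transcript and less of it per cell cannot be told apart.

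Most members were somewhat lower in the libraries labelled siKIF15, while NOLC1 and NOP10 were higher. Among the 35 tested, 8 fell, namely MYC, UTP20, UTP15, HEATR1, WDR43, WDR3, PPAN and DDX21, at a limma adjusted p under 0.05. Over all genes tested, 8.33% fell, and among the 8925 genes at least as abundant as the least abundant member 12.7% fell, against 22.9% of the members. The 2 rises were 5.71% of the members, against 9.66% of all genes tested and 12.1% of genes as abundant. The median log2 change was -0.11 over the members and -0.004 over all genes tested, and 27 members had a negative change. In 14 members every library labelled siKIF15 was below every NC library, and in 2 every one was above. Over all genes tested these shares were 16.5% and 18.3%. The count of falls was 1, 5 and 13 without siKIF15 1, siKIF15 2 or siKIF15 3, and 3, 2 and 2 without NC 1, NC 2 or NC 3. Over all genes the falls were 2.50%, 5.63% and 15.3% without siKIF15 1, 2 or 3, and 4.37%, 2.84% and 4.10% without NC 1, 2 or 3. The count of rises was 1 without any single library except siKIF15 3, NOLC1 being the one left. Over all genes the rises were 4.59%, 7.59% and 15.3% without siKIF15 1, 2 or 3, and 6.51%, 5.46% and 6.3% without NC 1, 2 or 3. The count of falls was 1 when the variance was not allowed to depend on abundance (1.87% of all genes), 13 with equal library totals (10.6% of all genes), and 17 after a adjustment for GC content and length of the transcript, which is described further on.

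**Figure D1:**
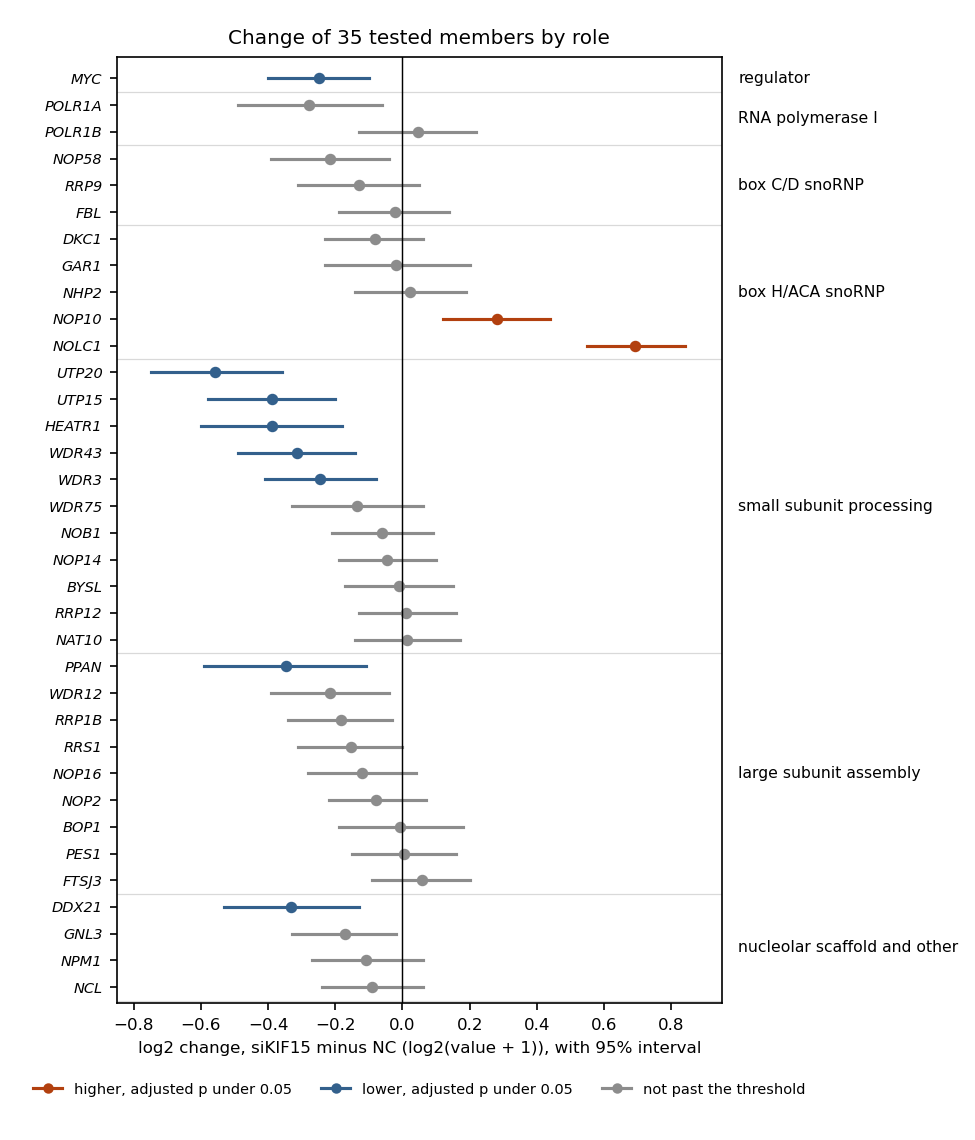
Log2 change of each of the 35 tested members with its 95% interval, taken as siKIF15 minus NC of log2(value + 1) and grouped by role. Most points lie left of 0, the furthest left being UTP20 at -0.56, and NOLC1 stands apart on the right at 0.69.

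MYC itself fell. Its signal was 7058.8, 7546.8 and 6672.9 in the libraries labelled siKIF15, against 8261.4, 8220.8 and 8782.7 in the NC libraries. Every library labelled siKIF15 was below every NC library, and the drop was modest. The mean was 7092.9 ± 438.0 in the libraries labelled siKIF15 and 8421.6 ± 313.4 in NC (SD, n = 3 each), a log2 change of -0.25 ± 0.07 (SE, 95% interval -0.40 to -0.10, limma adjusted p = 0.021). The call ended without siKIF15 1, NC 1, NC 2 or NC 3 (adjusted p = 0.11, 0.076, 0.074 and 0.14), although the change stayed between -0.27 and -0.22 in those fits. After correction for GC content and length it was -0.36 (adjusted p = 2e-05).

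In the MYC network, the antagonist MXD1 moved far more than MYC. MXD1 also pairs with MAX and represses through the E-box. MXD1 signal was 2552.3, 2242.4 and 2777.1 in the libraries labelled siKIF15, against 579.5, 611.5 and 649.2 in NC. The groups were wide apart, with a 4.12-fold higher mean in the libraries labelled siKIF15 (log2 change 2.04 ± 0.10 SE, limma adjusted p = 4.3e-10), and the call held without any single library. It was the 1 gene called among 14 tested of the MYC family, partners, antagonists and turnover factors, whose median log2 change was 0.08. As a share this was 7.14% higher, against 9.66% of all genes tested. After correction for GC content and length 2 of the 14 rose and 1 fell, against 14.8% and 11.2% of all genes in that fit. MAX, MXD3, MGA and MYCL lie outside the naming rule and were named after their values were seen. MAX, the shared partner, had a log2 change of 0.06 (adjusted p = 0.62). MXD3, another antagonist, had 0.32 (adjusted p = 0.056), and MGA, a repressor that also pairs with MAX, had -0.46 (adjusted p = 0.057). MYCL, a relative of MYC, was listed at 572.0, 547.2 and 549.9 in the libraries labelled siKIF15 and at 491.0, 429.8 and 557.5 in NC. Those groups overlapped.

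**Figure D2:**
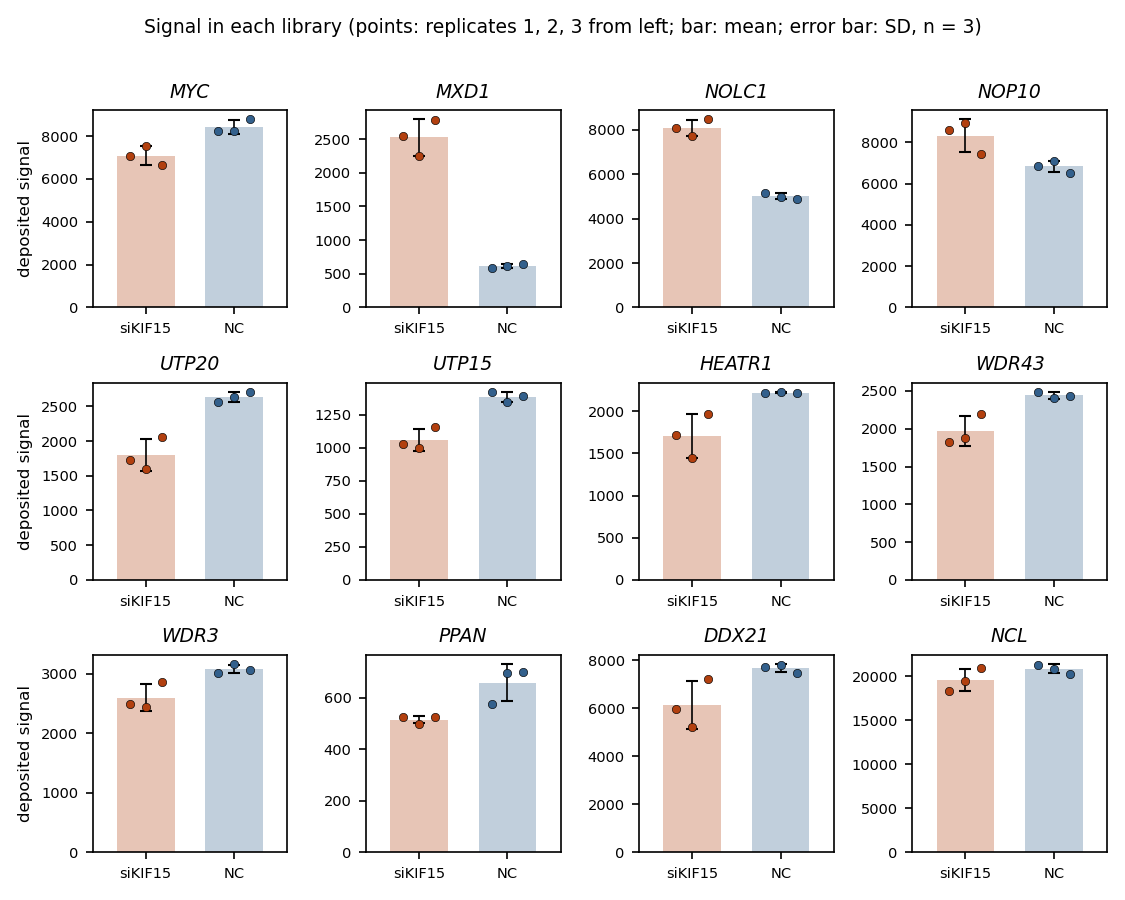
Deposited signal in each library for MYC, its antagonist MXD1, the 9 other members past the threshold, and NCL as an abundant member that was not, with the siKIF15 libraries left and NC right in each panel. Points are libraries, bars are means and error bars are SD (n = 3). In every panel but NCL the points of the groups do not overlap, and MXD1 has the largest fold between means, at 4.12.

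The catalytic core of RNA polymerase I did not pass the test. POLR1A encodes the largest subunit. Its signal was 4281.8, 3200.1 and 4120.4 in the libraries labelled siKIF15, against 4395.1, 4490.9 and 5087.5 in NC. The groups did not overlap, yet siKIF15 2 lay well below the other libraries, and the log2 change was -0.28 ± 0.10 (SE, limma adjusted p = 0.068). It was -0.15 without siKIF15 2 (adjusted p = 0.24) and -0.05 after correction for GC content and length (adjusted p = 0.55). POLR1A did pass without siKIF15 3 (-0.33, adjusted p = 0.027) and with quantile normalization (-0.31, adjusted p = 0.047). It also passed with the replicate number as a block (adjusted p = 0.019), and in no other alternative. POLR1B, the second subunit of the core, had a log2 change of 0.05 (95% interval -0.13 to 0.22).

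Of the snoRNP genes, 2 rose and none fell among 8 tested. Over all genes tested 9.66% rose and 8.33% fell, so the lack of falls among so few genes is not read as a result. Box C/D particles guide ribose methylation of ribosomal RNA. FBL, the methyltransferase and the most abundant of them, was at 12247.1, 13875.1 and 11958.2 in the libraries labelled siKIF15, against 12869.8, 13804.1 and 12009.6 in NC. The groups overlapped almost fully (log2 change -0.02, 95% interval -0.19 to 0.14). NOP58, a scaffold of the particle, had a log2 change of -0.22 (limma adjusted p = 0.086), and RRP9, a protein of the U3 particle, -0.13 (adjusted p = 0.33). The related scaffold gene NOP56 was listed at or near 0 in all libraries except NC 2, where it stood at 2.3. NOP56 lies on chromosome 20, and 207 of the 250 listed genes of that chromosome had a mean under 10, so this value is not read as absence.

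NOLC1, which encodes a nucleolar chaperone that binds snoRNPs, had the clearest change of all members. Its signal was 8084.3, 7746.6 and 8477.1 in the libraries labelled siKIF15, against 5170.4, 4963.4 and 4896.7 in NC. All libraries labelled siKIF15 stood far above all NC libraries, 1.62-fold on average (log2 change 0.69 ± 0.07 SE, limma adjusted p = 2.7e-06). This call held in all 18 alternatives tried. NOLC1 lies on chromosome 10 (102152389 to 102163870, GRCh38.p14).

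NOP10 was the other rise. It encodes a small protein of the box H/ACA particle, which guides pseudouridylation and is shared with telomerase. The NOP10 signal was 8599.1, 8920.1 and 7415.8 in the libraries labelled siKIF15, against 6870.5, 7071.3 and 6528.3 in NC, without overlap. The mean was 1.22-fold higher in the libraries labelled siKIF15 (log2 change 0.28 ± 0.08 SE, limma adjusted p = 0.020). The call ended without siKIF15 1, siKIF15 2, NC 1, NC 2 or NC 3 (adjusted p = 0.14, 0.056, 0.077, 0.07 and 0.12), and after correction for GC content and length the change was 0.11 (adjusted p = 0.11). With GC content and length both taken as medians over transcripts, the corrected change was 0.27 and the call held (adjusted p = 0.0082). NOP10 had the shortest transcript of the members, at 0.554 kb. Its partners in the particle did not pass. DKC1, the pseudouridine synthase, had a log2 change of -0.08 (95% interval -0.23 to 0.06), NHP2 had 0.02 (-0.14 to 0.19) and GAR1 had -0.02 (-0.23 to 0.20).

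Of the 11 genes of small subunit processing tested, 5 fell (45.5%, against 8.33% of all genes tested) and none rose. After correction for GC content and length 4 of the 11 fell, namely UTP20, UTP15, WDR43 and NOB1. In large subunit assembly 5 of the 9 then fell, against 11.2% of all genes in that fit. UTP20, a large scaffold of the small subunit processome, had the largest fall of the members. Its signal was 1732.3, 1603.2 and 2058.9 in the libraries labelled siKIF15, against 2559.2, 2639.3 and 2705.3 in NC. The groups were well apart, and the mean was 1.47-fold lower in the libraries labelled siKIF15 (log2 change -0.56 ± 0.09 SE, limma adjusted p = 0.00055). The call held without any single library, and the corrected change was -0.28 (adjusted p = 0.00059).

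UTP15, HEATR1, WDR43 and WDR75 belong to the module that joins the precursor RNA early and also serves its transcription. Of these, WDR75 did not pass and its groups overlapped, though its log2 change of -0.135 was negative like those of the others. Whether the module fell as a whole was not tested. UTP15 signal was 1027.1, 996.4 and 1157.4 in the libraries labelled siKIF15, against 1420.4, 1346.4 and 1392.9 in NC. The log2 change of UTP15 was -0.39 ± 0.09 (SE, limma adjusted p = 0.007), and it lost its call only without siKIF15 1 (adjusted p = 0.061) among the fits without 1 library. HEATR1 signal was 1714.6, 1444.6 and 1970.2 in the libraries labelled siKIF15, against 2214.4, 2229.1 and 2220.0 in NC. The NC libraries of HEATR1 were nearly level while those labelled siKIF15 spread widely, with SDs of 262.8 in the libraries labelled siKIF15 and 7.4 in NC. HEATR1 changed by -0.39 ± 0.10 (SE, limma adjusted p = 0.013), and the call ended without siKIF15 1, NC 1, NC 2 or NC 3 (adjusted p = 0.093, 0.055, 0.085 and 0.056). WDR43 signal was 1829.6, 1877.7 and 2197.2 in the libraries labelled siKIF15, against 2487.9, 2405.0 and 2429.4 in NC. Its log2 change was -0.32 ± 0.08 (SE, limma adjusted p = 0.016), with the call lost without siKIF15 1, NC 1, NC 2 or NC 3 (adjusted p = 0.12, 0.084, 0.074 and 0.07). After correction UTP15 and WDR43 kept their calls at -0.26 and -0.21 (adjusted p = 0.0061 and 0.006), and HEATR1 did not, at -0.12 (adjusted p = 0.11).

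WDR3, a scaffold of another module of the processome, was the weakest of these calls. The WDR3 signal was 2491.1, 2439.6 and 2866.8 in the libraries labelled siKIF15, against 3011.9, 3155.5 and 3064.3 in NC. Its log2 change was -0.25 ± 0.08 (SE, limma adjusted p = 0.041), and it was 0.09 after correction (adjusted p = 0.29). The call ended without siKIF15 1, siKIF15 2, NC 1, NC 2 or NC 3 (adjusted p = 0.18, 0.11, 0.11, 0.17 and 0.13). The other members of the group were close to level before correction. NOB1, the endonuclease that finishes the small subunit RNA and the most abundant of the group, was at 5468.5, 6021.1 and 5325.6 in the libraries labelled siKIF15, against 5829.4, 6117.4 and 5587.4 in NC. Its log2 change was -0.06 (limma adjusted p = 0.61), and -0.145 after correction (adjusted p = 0.029). NAT10, which acetylates that RNA, had a log2 change of 0.01 (95% interval -0.14 to 0.17), and RRP12, an export factor, also 0.01 (-0.13 to 0.16). WDR75 had -0.14 (adjusted p = 0.36), NOP14 had -0.05 (adjusted p = 0.69) and BYSL had -0.01 (adjusted p = 0.95).

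Of 9 genes of large subunit assembly, PPAN fell and none rose. This fall was 11.1% of the group, near the 8.33% of all genes tested and 12.7% of genes as abundant. PPAN encodes a factor that joins early large subunit precursors. Its signal was 523.6, 497.2 and 523.0 in the libraries labelled siKIF15, against 575.5, 696.5 and 700.4 in NC. The gap to NC 1 was small, and the log2 change was -0.35 ± 0.11 (SE, limma adjusted p = 0.046). The call ended without siKIF15 1, siKIF15 2, NC 2 or NC 3 (adjusted p = 0.13, 0.099, 0.18 and 0.2). PPAN reads may be shared with the read-through gene PPAN-P2RY11 and with P2RY11 on the same strand, since how such reads were counted is not stated. PES1, BOP1 and WDR12 form 1 complex that acts in large subunit RNA processing. PES1, the most abundant of the group, was at 7777.3, 8725.8 and 7339.4 in the libraries labelled siKIF15, against 8131.2, 7742.6 and 7810.4 in NC, with full overlap. PES1 and BOP1 both had log2 changes of 0.01 in size or less, with 95% intervals of -0.15 to 0.16 and -0.19 to 0.18. WDR12 had -0.22 (adjusted p = 0.077) with no overlap between groups. The remaining 5 did not pass either. NOP2, a methyltransferase, had -0.08 (adjusted p = 0.49), NOP16 had -0.12 (adjusted p = 0.31) and RRS1, which helps bring in the 5S RNA, had -0.15 (adjusted p = 0.17). RRP1B had -0.18 (adjusted p = 0.099), and FTSJ3, a ribose methyltransferase, had 0.06 (adjusted p = 0.61).

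The abundant nucleolar proteins did not pass the test, apart from the helicase gene DDX21. DDX21 links polymerase I transcription with RNA processing. Its signal was 5991.1, 5218.7 and 7215.2 in the libraries labelled siKIF15, against 7714.2, 7806.1 and 7479.7 in NC. The libraries labelled siKIF15 spread widely, with siKIF15 3 close to NC. DDX21 changed by -0.33 ± 0.09 (SE, limma adjusted p = 0.023), and by -0.17 after correction (adjusted p = 0.018). With GC content and length both taken as medians over transcripts, the corrected change was -0.11 and the call ended (adjusted p = 0.12). The call ended without siKIF15 1, siKIF15 2, NC 1, NC 2 or NC 3 (adjusted p = 0.15, 0.074, 0.087, 0.14 and 0.067). NPM1, a chaperone that organises the nucleolus, was at 29149.3, 33082.7 and 33103.0 in the libraries labelled siKIF15, against 33967.0, 36650.1 and 32093.3 in NC. Those groups overlapped (log2 change -0.11, adjusted p = 0.38), and 45 pseudogenes named after NPM1 in GENCODE 29 make its counts uncertain. NCL, another abundant nucleolar protein, had -0.09 (adjusted p = 0.41), and GNL3, a GTP-binding protein, -0.17 (adjusted p = 0.12).

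Because MYC binds the E-box, the RefSeq promoters of the members were read from 250 bases before to 50 after the start (GRCh38.p14). The motif searched was CACGTG, which reads the same on both strands. Of 35 tested members, 28 were matched to a promoter, and 10 of these (35.7%) held CACGTG. The share was 9.58% of the 12607 promoters matched to genes tested, 11.2% among genes as abundant as the members and 7.26% of all 35116 promoters in the table. Among the called members, it was held by 2 of 7 that fell and by NOP10, the single matched member that rose. Of the 20 matched members that were not called, 7 held it, so the motif was not confined to called members. Members with and without the motif fell, and a match is a description of these letters, not of binding. The promoters of 4 called members are shown because they cover both directions and both states of the motif. They are in lower case with CACGTG in capitals. NOP10 has it at -170 and -11 from the start site, UTP20 at -10, WDR43 at 4, counted to the first base of the motif with the start site as 0, and UTP15 has none in this window.
NOP10, chr15:34343087-34343386, minus strand: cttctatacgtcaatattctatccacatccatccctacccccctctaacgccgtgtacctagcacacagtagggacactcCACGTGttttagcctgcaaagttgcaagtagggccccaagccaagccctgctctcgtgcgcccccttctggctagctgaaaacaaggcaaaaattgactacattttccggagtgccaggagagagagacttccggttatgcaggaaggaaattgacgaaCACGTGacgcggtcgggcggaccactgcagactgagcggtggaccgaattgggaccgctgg
UTP20, chr12:101279855-101280154, plus strand: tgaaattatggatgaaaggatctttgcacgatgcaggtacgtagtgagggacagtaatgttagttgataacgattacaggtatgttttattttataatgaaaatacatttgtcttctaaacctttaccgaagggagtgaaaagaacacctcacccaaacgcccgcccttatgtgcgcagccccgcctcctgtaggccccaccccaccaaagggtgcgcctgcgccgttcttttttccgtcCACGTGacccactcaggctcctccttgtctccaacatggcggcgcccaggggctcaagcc
WDR43, chr2:28894417-28894716, plus strand: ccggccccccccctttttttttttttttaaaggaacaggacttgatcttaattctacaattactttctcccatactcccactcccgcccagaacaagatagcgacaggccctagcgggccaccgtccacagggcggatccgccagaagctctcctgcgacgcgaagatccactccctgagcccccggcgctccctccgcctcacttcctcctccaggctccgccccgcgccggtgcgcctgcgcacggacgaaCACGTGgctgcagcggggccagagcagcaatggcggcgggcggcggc
UTP15, chr5:73565493-73565792, plus strand: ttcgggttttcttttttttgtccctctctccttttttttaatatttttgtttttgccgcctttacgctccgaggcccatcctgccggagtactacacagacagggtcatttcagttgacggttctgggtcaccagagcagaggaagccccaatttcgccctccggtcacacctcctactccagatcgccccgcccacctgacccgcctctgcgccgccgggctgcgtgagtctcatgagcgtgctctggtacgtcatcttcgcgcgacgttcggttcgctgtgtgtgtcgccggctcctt
These windows belong with different changes in signal: higher in the libraries labelled siKIF15 for NOP10, and lower for UTP20, WDR43 and UTP15.

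The libraries labelled siKIF15 differed among themselves more than the NC libraries, and in a way that followed base composition. The SD was larger in the libraries labelled siKIF15 for 27 of 35 members, with a median coefficient of variation of 7.16% in these libraries and 2.85% in NC. Of the 17 members with a GC content above the member median, siKIF15 3 was the lowest of its group in 14 and the highest in 0. Of the 18 at or below it, siKIF15 3 was the highest in 16. The difference of a library from the NC mean had a Spearman correlation with GC content across the 35 members of 0.52, 0.56 and -0.30 in siKIF15 1, 2 and 3. Over the 8925 genes as abundant as the members it was 0.55, 0.51 and -0.08. The NC libraries, each part of that mean, also varied with GC content. In NC 1, 2 and 3 the values were 0.02, -0.18 and 0.11 across the members and 0.23, -0.38 and 0.26 over the 8925 genes. With transcript length the member values were -0.24, -0.54 and 0.10 in siKIF15 1, 2 and 3. The members of 1 library share its preparation, so these correlations are descriptions. The 8 members that fell had a median GC content of 40.9% and a median length of 4.20 kb, against 51.7% and 2.30 kb for the 25 not called. Member medians in the libraries labelled siKIF15 were -0.14, -0.06 and -0.11 for siKIF15 1, 2 and 3, while the medians over all genes tested were 0.000, 0.014 and 0.004.

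**Figure D3:**
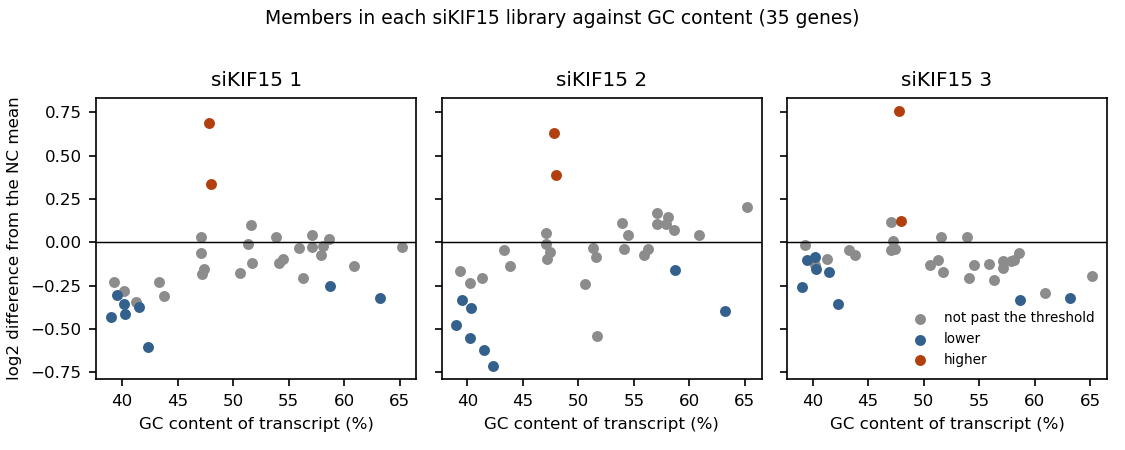
Log2 difference of each member from the NC mean in siKIF15 1, 2 and 3 (y axis) against the GC content of its transcript in percent (x axis), with called members coloured. Members of low GC content lie lowest in siKIF15 1 and siKIF15 2, whereas in siKIF15 3 the cloud is flat or falls slightly to the right.

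After a correction for GC content and length, the members as a whole were as low, but the genes called were partly different ones. Then 17 members fell and NOLC1 alone rose, with a median log2 change of -0.12 over the members and 0.003 over all genes tested. Over all genes in that fit, 11.2% fell and 14.8% rose. MYC, UTP20, UTP15, WDR43, PPAN and DDX21 fell both before and after. HEATR1, WDR3 and NOP10 passed only before it. The 11 that passed only after it were FBL, NOP58, RRP9, NHP2, NOB1, NOP2, NOP16, RRS1, RRP1B, NPM1 and GNL3, all lower. Among the members a link with length remained, with its sign reversed. The Spearman correlation of the log2 change with transcript length was -0.32 before correction and 0.36 after it. With GC content it was 0.41 before and -0.15 after. The corrected falls are therefore not read as free of length. The corrected log2 change was -0.24 for RRS1 (limma adjusted p = 0.001), -0.23 for RRP9 (adjusted p = 0.0017) and -0.20 for NOP58 (adjusted p = 0.0069). This depended on how the GC content and length of a gene were taken. With the median of both over its transcripts, chosen after seeing the data, 8 fell and 2 rose. The 2 were changed together, so their parts were not tested. Those 8 were MYC, RRP9, UTP20, UTP15, WDR43, NOP16, RRS1 and PPAN, and the rises were NOLC1 and NOP10. Over all genes in that fit, 10.8% fell. DDX21, FBL (adjusted p = 0.17) and NOP58 (adjusted p = 0.13) did not pass there.

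**Figure D4:**
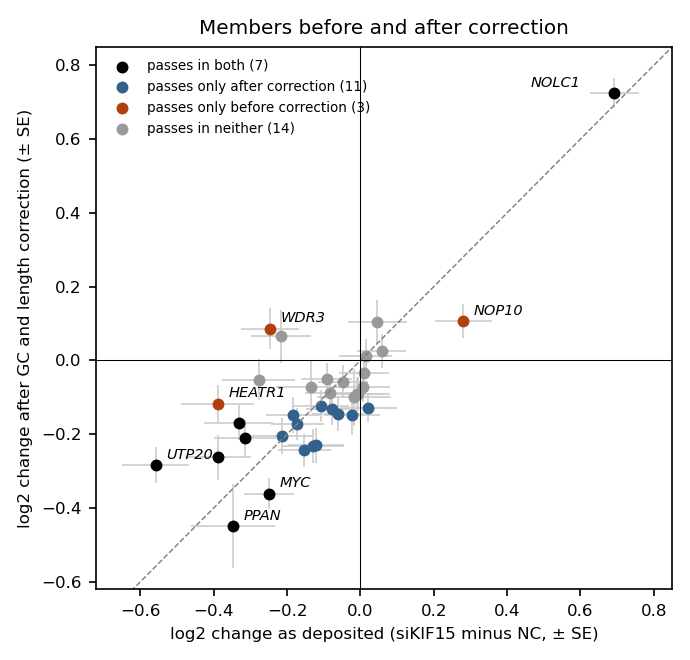
Log2 change of the 35 members (siKIF15 minus NC) as deposited on the x axis and after adjustment for GC content and length on the y axis, with SE bars and a line of equality. MYC and PPAN lie below the line, UTP20, HEATR1 and WDR3 above it, and NOLC1 close to it.

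Other genes of the same steps were taken from lists that did not overlap the members. Of 13 further genes of polymerase I transcription, RRN3 and POLR1E fell (15.4%, against 8.33% of all genes tested) and none rose, with a median log2 change of -0.11. After correction for GC content and length 5 of the 13 fell and 0 rose, against 11.2% and 14.8% of all genes in that fit. RRN3, the initiation factor that tethers the polymerase to the promoter, averaged 3356.3 ± 253.2 in the libraries labelled siKIF15 and 3982.7 ± 287.9 in NC (SD, n = 3 each; log2 change -0.25, limma adjusted p = 0.042). POLR1E, a subunit, averaged 1830.0 ± 10.9 in the libraries labelled siKIF15 and 2164.3 ± 138.4 in NC (log2 change -0.24, adjusted p = 0.045). Both calls ended without any single library but siKIF15 3 (RRN3 adjusted p = 0.21, 0.086, 0.073, 0.22 and 0.11 without siKIF15 1, siKIF15 2, NC 1, NC 2 and NC 3, POLR1E 0.13, 0.072, 0.068, 0.14 and 0.23). Of 40 further small subunit genes, WDR36 fell (log2 change -0.38, adjusted p = 0.025) and none rose, with a median of -0.05. The share of falls in this list, 2.50%, was below that of all genes tested, and after correction 6 of the 40 fell and 1 rose. The call of WDR36 also ended without any single library but siKIF15 3 (adjusted p = 0.17, 0.09, 0.089, 0.15 and 0.063) and after correction (adjusted p = 0.28).

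Of 48 further large subunit genes, 4 fell and 1 rose, with a median log2 change of -0.11. At 8.33% and 2.08%, these shares were no higher than the 8.33% and 9.66% of all genes tested. After correction for GC content and length, however, 13 of the 48 fell and 1 rose, against 11.2% and 14.8% of all genes in that fit. MDN1, a giant ATPase that strips factors from the precursor, was at 548.9, 407.7 and 589.9 in the libraries labelled siKIF15, against 737.2, 797.5 and 894.8 in NC. The groups did not overlap, and the mean was 1.57-fold lower in the libraries labelled siKIF15 (log2 change -0.66 ± 0.14 SE, limma adjusted p = 0.0033), a call that held without any single library. The change of MDN1 was -0.34 after correction (adjusted p = 0.0085), and the call ended without the variance trend (adjusted p = 0.087). NOL9, an RNA kinase, fell by 0.33 (adjusted p = 0.0084), losing its call without NC 2 or NC 3 (adjusted p = 0.064 and 0.051). TEX10 fell by 0.36 (adjusted p = 0.014), losing its call without siKIF15 1, NC 1, NC 2 or NC 3 (adjusted p = 0.083, 0.059, 0.069 and 0.068). GNL3L, a relative of GNL3, had a log2 change of -0.29 (adjusted p = 0.021) and is outside the naming rule, being named after its value was seen. The helicase gene DDX24 rose by 0.27 on the log2 scale, to 11507.1 ± 464.4 in the libraries labelled siKIF15, against 9553.3 ± 236.3 in NC (adjusted p = 0.0098), losing its call without siKIF15 1, NC 2 or NC 3 (adjusted p = 0.071, 0.052 and 0.079). None of 14 RNA exosome genes passed the limma test, and after correction 2 fell and 0 rose.

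Among 19 described MYC targets outside ribosome biogenesis, PPAT fell (5.26%, against 8.33% of all genes tested) and none rose, with a median log2 change of -0.01. After correction for GC content and length 4 of the 19 fell and 2 rose. PPAT, the first enzyme of purine synthesis, was at 1759.8, 1714.9 and 2220.9 in the libraries labelled siKIF15, against 2514.0, 2725.6 and 2501.4 in NC. Its log2 change was -0.45 ± 0.10 (SE, limma adjusted p = 0.0042), and the call ended without siKIF15 1 or NC 2 (adjusted p = 0.072 and 0.057). Ribosomal protein genes had a median of 0.16 over 78 tested, with 19 higher and 0 lower. The 19 were 24.4%, against 9.66% of all genes tested and 12.1% of genes as abundant as the members. After correction the median was 0.06, with 19 higher and 1 lower, against 14.8% and 11.2% of all genes in that fit. RPS27L and RPS27 had the smallest adjusted p among them, at 1.38-fold and 1.44-fold higher means (adjusted p = 0.00038 and 0.003), and RPS27 lost its call without siKIF15 1 (adjusted p = 0.076).

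Transcript levels of the members differed widely. Per kilobase of the principal transcript, NPM1 had the highest mean signal, 18076 in the libraries labelled siKIF15 and 19475 in NC, followed by NOP10 with 15003 in the libraries labelled siKIF15 and 12317 in NC. Among the lowest were UTP20, with 199 in the libraries labelled siKIF15 and 292 in NC, HEATR1, with 202 in the libraries labelled siKIF15 and 263 in NC, and WDR12, with 230 in the libraries labelled siKIF15 and 267 in NC. These levels depend on the 1 transcript length used for each gene. Another shared feature is that 6 of the tested members (NOP58, DKC1, WDR43, PPAN, NCL and GNL3) carry snoRNA genes within them in GENCODE 29. All 6 had a negative log2 change, as did 27 of all 35, and WDR43 and PPAN passed the test.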

How the data were processed

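Per the labels' protocols, total RNA was checked by spectrophotometry and on a denaturing gel and made into Illumina libraries. For these human cells the submitters' processing notes name mm8 and mm9, which are mouse builds, and Bowtie 0.12.2. For the human build, the annotation, the strand and the aligner settings, the answer is not given in the sources used here. Each deposited file lists a signal for every symbol, and no header states how the authors made it. Values are not whole and look adjusted to a common library size, so no reads were recovered and depth is unknown.

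Groups came from the sample titles. All 6 libraries entered 1 fit with no covariate in limma 3.58.1 (R 4.3.3), on log2(value + 1) with the variance allowed to follow abundance. It covered the 16548 genes whose group mean reached 1 in either group. Benjamini-Hochberg adjustment covered all of these, and 0.05 was the threshold. Changes are on that log2 scale, NC subtracted from siKIF15, and understate those of low genes. The fit was tested on simulated data with independent noise in each gene and library. Those data held no shift linked to GC content or length, so calls that move with such shifts were not tested. GC content and length came from the longest principal transcript in GENCODE 29. The correction subtracted, per library, a loess fit (span 0.3) on both.

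All members could be named, as could KIF15, and up to 4 non-overlapping called genes with the smallest adjusted p in each further list. The members, lists and tests were chosen with earlier results of these data known. Overlapping and antisense genes are uncertain, since strand use in counting is not stated.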

Additional observations from a re-analysis of the deposited data

How the results depend on the processing

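KIF15 did not pass under any of the 18 alternatives and was at 0.02 after the GC and length correction. The member median stayed negative in all 18. Scaling to equal totals gave 13 falls, a member median of -0.17 and 1205 higher and 1753 lower among all genes, against 1599 and 1379 as deposited. Without the variance trend 1 member rose, 1 fell, 1070 genes were called in all, and MYC kept a change of -0.25 without its call (adjusted p = 0.12). After the GC and length correction 1 rose and 17 fell, and the same counts held with the replicate block added. In both, WDR3, called before, was at 0.086, and NHP2 was at -0.13, against 0.02 before. Leaving out 1 library gave 1 to 2 rises, 1 to 13 falls, 1184 to 5077 calls over all genes and MYC changes of -0.295 to -0.206. NOLC1 and UTP20 kept their calls in all 18, while PPAN, NOP10 and HEATR1 lost theirs in 8. The cause was not tested. With the replicate block alone 9 members fell, POLR1A being the addition (adjusted p = 0.019). Same-numbered libraries did not deviate together (correlations of 0.03, -0.06 and 0.02 over 13632 genes), so the numbers are not read as pairs.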

Other observations

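Chromosome 20 stood apart from all others in the deposited values, which bears on the missing value of NOP56. Of its 250 listed genes, 82.8% had a mean signal under 10 over the 6 libraries, with a median of 1.64 and a highest mean of 99.6. On chromosomes 1 to 19, 21, 22 and X these shares ran from 14.9% on chromosome 16 to 27.6% on the X chromosome. Genes that cells generally use were among those near 0, NOP56 being the example here. The cause was not tested.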
